A study of Mus musculus with 22 samples.

Results

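Fatty acid oxidation was followed through 40 genes that activate fatty acids, carry them across the carnitine shuttle or the peroxisomal membrane, and oxidise them in mitochondria or peroxisomes. They were chosen by name, as probes whose target name equals one of the 40 symbols, among 30774 target names on the array. Of the 40, 38 had at least 1 probe, with 74 of the 45281 probes in all, and 33 passed the detection filter and were tested among 9881 genes. By textbook location, 15 of the 33 tested genes were counted as mitochondrial, 12 as peroxisomal, and 6 as neither or both. HADHA and ACAD11 matched no target name and were not analysed here.

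The samples were livers of 22 male mice of the inbred strain C57BL/6J, aged 29 weeks, and each liver RNA was read on 1 Illumina bead array. In WW (n = 6) the dam and the offspring both received a western diet, and in WL (n = 5) the dam received it and the offspring a low-fat control diet. In LW (n = 5) the dam received the low-fat control diet and the offspring the western diet, and in LL (n = 6) both received the low-fat control diet. Dams were put on their diet at 5 weeks of age, 6 weeks before mating, and kept it through gestation and lactation, and the offspring were fed their own diet for 24 weeks. The series title names a maternal western diet and the susceptibility of adult male offspring to inflammation of the liver, and the comparisons below ask how the diet after weaning, the diet of the dam and both together bear on these genes. The labels give no litter and no composition of the diets, so each p-value treats a mouse as independent.

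The arrays detected between 13285 and 15105 probes each. They lay on 4 slides, and the median F for slide was 2.27 over the 33 genes and 2.04 over all genes, where 0.826 is expected without a slide difference. LL 1 was the sole LL array on slide 1, LW 5 the sole LW array on slide 3 and WL 5 the sole WL array on slide 4, so slide and diet overlap in part, and values within slides stand beside the main results. LL 1 also had the lowest mean signal (151, where the other arrays ran from 198 to 276). Its share of intensities below 0 was the largest (41.2%). Of 9 hepatocyte markers, 8 were tested, TAT being the exception. ADIPOQ, PLIN1 and RETN of the adipose list, KRT19 and EPCAM of the bile duct list and all 6 skeletal muscle markers were not detected. Whole liver RNA was measured, so fewer cells of a type and less RNA per cell cannot be told apart. Precision is limited by the number of arrays.

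As background, a fatty acid is first joined to coenzyme A by an acyl-CoA synthetase. Long-chain acyl groups enter mitochondria through the carnitine shuttle and are then shortened in repeated cycles of dehydrogenation, hydration, a further dehydrogenation and thiolysis. Peroxisomes import very long, branched and dicarboxylic acyl groups through ABCD transporters and shorten them with their own enzymes. In mouse liver many genes of both routes are known targets of the nuclear receptor PPAR-alpha.

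Averaged over dam diets, western-fed offspring had lower EHHADH and ACSL1 than low-fat-fed offspring, and these were the 2 of the 33 genes that passed the threshold (limma, Benjamini-Hochberg adjusted p under 0.05 over 9881 genes). EHHADH, the peroxisomal bifunctional enzyme that hydrates and dehydrogenates straight-chain and dicarboxylic acyl-CoA, was 2.14-fold lower (log2 difference -1.10 ± 0.28 SE, adjusted p = 0.0345). ACSL1, the main long-chain acyl-CoA synthetase of liver, was 1.56-fold lower (-0.64 ± 0.14, adjusted p = 0.0141). The 2 called genes are 6.06% of the 33, beside 2.71% of all genes. At an unadjusted p under 0.05, 1 gene was higher and 7 were lower (24.2% of the 33), beside 20% of all genes.

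Because these 2 genes carry the calls, the 250 bases before each annotated start are shown, from RefSeq (GRCm38.p6), 5′ to 3′ on the gene's strand. EHHADH lies on the minus strand of chromosome 16 and has 1 window, chr16:21787835-21788084. ACSL1 lies on the plus strand of chromosome 8 and has 2 annotated starts, with the windows chr8:46470787-46471036 and chr8:46490716-46490965. Capitals mark the GC box (GGGCGG) and the CCAAT box (CCAAT), read on both strands.
EHHADH: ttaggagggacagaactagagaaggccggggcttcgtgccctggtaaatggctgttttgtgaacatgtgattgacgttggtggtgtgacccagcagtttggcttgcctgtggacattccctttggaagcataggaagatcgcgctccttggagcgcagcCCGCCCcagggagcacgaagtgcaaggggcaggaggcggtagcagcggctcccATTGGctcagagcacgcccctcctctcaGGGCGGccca
ACSL1, first start: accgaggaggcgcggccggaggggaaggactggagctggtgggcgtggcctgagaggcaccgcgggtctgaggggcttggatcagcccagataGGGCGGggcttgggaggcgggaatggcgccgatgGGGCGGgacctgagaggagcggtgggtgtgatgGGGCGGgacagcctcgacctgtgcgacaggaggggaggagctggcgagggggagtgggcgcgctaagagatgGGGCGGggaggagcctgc
ACSL1, second start: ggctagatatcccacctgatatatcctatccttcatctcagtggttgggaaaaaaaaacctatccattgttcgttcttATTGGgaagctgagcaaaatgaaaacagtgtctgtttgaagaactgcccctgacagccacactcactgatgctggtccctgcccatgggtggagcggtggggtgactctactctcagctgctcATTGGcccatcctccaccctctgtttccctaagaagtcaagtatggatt
The EHHADH window holds 2 GC boxes and 1 CCAAT box. The first ACSL1 window holds 4 GC boxes and 0 CCAAT boxes, and the second holds 0 GC boxes and 2 CCAAT boxes. Of 37 windows of the 34 genes matched in the table, 56.8% hold a GC box and 40.5% a CCAAT box, against 32.7% and 33.8% of all 32851 windows. A direct repeat of AGGTCA with 1 base between its copies, the motif that PPAR-alpha is known to bind with its partner RXR, was searched on both strands with at most 2 mismatches in 12 letters. It was found in 3 of the 37 windows (8.11%) and in 3.24% of all windows. The matches, with the spacer in lower case, are printed whole, with the mismatched letters in capitals too (2 in ECHS1, 2 in ETFA and 1 in FABP1).
ECHS1: AGGTCAcGGGTCC
ETFA: AGGGCAaAGGTAA
FABP1: AGGCCAtAGGTCA
None of the 3 windows of EHHADH and ACSL1 holds such a match. A match is a description of letters, and no match says only that these letters are not in this window.

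EHHADH had log2 intensities of 6.19, 6.88, 6.11, 6.60 and 6.92 in the LW mice, against a lowest value of 7.03, a median of 7.71 and a highest of 8.45 in LL. All LW mice lay below all LL mice. In WW its lowest, median and highest values were 5.73, 6.57 and 7.22, against 7.28, 7.48, 6.98, 6.36 and 9.78 in the WL mice. WW and WL overlapped, and WL 5 at 9.78 stood far above the other WL mice. The difference was -1.16 ± 0.40 in LW against LL (adjusted p = 0.168) and -1.03 ± 0.40 in WW against WL (0.244), neither past the threshold. Without WL 5 the WW against WL difference was -0.48, and the average over dam diets was -0.82. Without WL 5, LW against LL passed at the same difference of -1.16 (adjusted p = 0.0410). Between the western-fed groups, EHHADH averaged 6.54 ± 0.56 in WW and 6.54 ± 0.38 in LW (SD).

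ACSL1 had log2 intensities of 10.96, 11.26, 11.21, 11.58 and 11.54 in the LW mice, against 11.74 (lowest), 11.86 (median) and 12.33 (highest) in LL. Here too every LW mouse lay below every LL mouse. In WW the lowest, median and highest values were 10.48, 11.20 and 11.46, against 11.65, 11.90, 11.84, 11.05 and 12.26 in the WL mice. WL 4 was the one WL mouse within the range of WW. The difference was -0.61 ± 0.19 in LW against LL (adjusted p = 0.143) and -0.67 ± 0.19 in WW against WL (0.121), and the interaction was -0.07 ± 0.27 (95% interval -0.63 to 0.50).

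**Figure D1:**
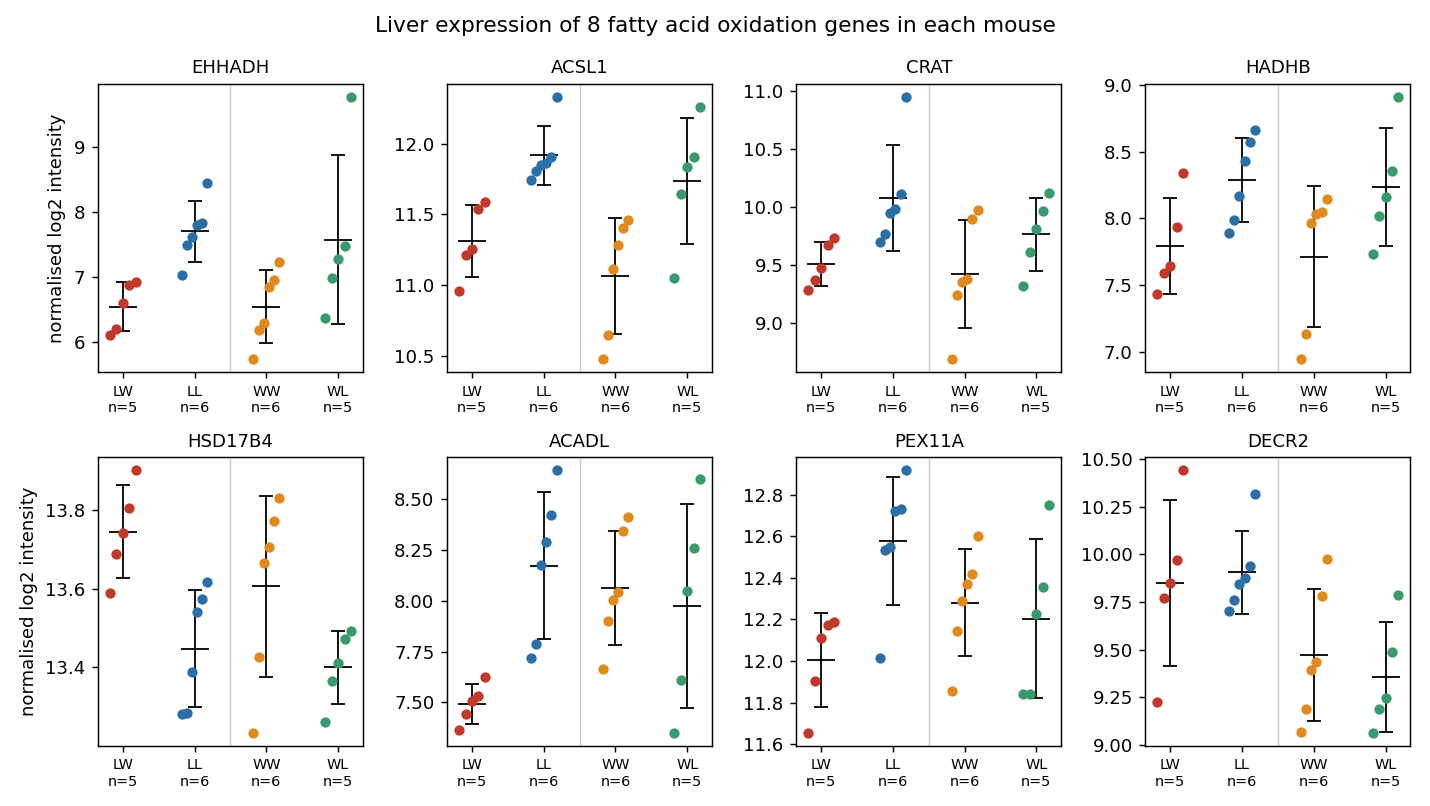
Normalised log2 intensity (vertical axis, its own scale in each panel) of 8 genes in every mouse, by group in the order LW, LL, WW and WL. Points are mice, the horizontal tick is the group mean and the bar is 1 SD. In EHHADH, ACSL1 and ACADL all LW points lie below all LL points, and WL 5 is the high EHHADH point at 9.78. The ACADL panel shows 1 of its 2 kept probes, and the other probe went the other way in LW against LL.

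Within slides, EHHADH differed by -1.30 (slide 1) and -0.40 (slide 3) in LW against LL, and by -0.86 (slide 2) and -2.69 (slide 4) in WW against WL. ACSL1 differed by -0.69 and -0.34 in LW against LL on the same slides, and by -0.52 and -1.20 in WW against WL. Each of the 8 within-slide differences was thus below 0, with 1 or 2 mice a side. On slide 4 the WL side was WL 5 alone, the mouse with the high EHHADH value. With slide as a block, EHHADH differed by -0.70 in LW against LL (adjusted p = 0.525, limma) and by -1.27 in WW against WL (0.0536). With slide as a block the averaged differences were -0.98 for EHHADH (adjusted p = 0.0467) and -0.60 for ACSL1 (0.0394). Leaving out each mouse in turn, ACSL1 passed in 22 of 22 fits (adjusted p 0.00401 to 0.0347) and EHHADH in 15 of 22 (0.0159 to 0.0708). EHHADH missed the threshold without LL 5, LL 6, LW 1, LW 3, WW 1, WW 2 or WW 3, with differences of -1.02 to -1.09. On the authors' deposited normalized values EHHADH differed by -0.28 and did not pass (adjusted p = 0.0880), while ACSL1 did.

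Markers of other cell types were read in the same comparison. Of the macrophage markers, in the average over dam diets, 8 of 10 were higher in western-fed offspring, with a median log2 difference of 0.10 and 0 past the threshold (1 higher and 1 lower at an unadjusted p under 0.05, limma). In WW against WL all 10 were higher, with a median of 0.34, and their summed normalised intensity ran from 6155 to 13463 in WW, against 4548 to 6863 in WL. It ran from 5069 to 6564 in LW, against 5267 to 10477 in LL. Of 8 hepatocyte markers 1 was higher in the average over dam diets, with a median of -0.14 and 0 past the threshold. At an unadjusted p under 0.05 (limma), 0 were higher and 2 lower, beside 20% of all genes. They were SERPINA1A (-0.45 ± 0.13, adjusted p = 0.0673) and TDO2 (-0.42 ± 0.14, 0.0998). The hepatocyte sum ran from 111283 to 135836 in LW, against 110858 to 132456 in LL. In WW it ran from 114073 to 144967, against 129536 to 137068 in WL. Of 3 tested adipose markers, CFD was higher in western-fed offspring (2.30 ± 0.59, adjusted p = 0.0345), while CAR3 stood at 0.32 ± 0.15 (0.212) and LEP at -0.07 ± 0.12 (0.807), and the other 3 of the list were not detected. Of 5 tested stellate cell markers 4 were higher, with a median of 0.10 and 0 past the threshold (1 at an unadjusted p under 0.05, limma), and COL1A2 and COL3A1 were not detected. COL1A1, a fibrillar collagen chain, stood at 0.59 ± 0.26 in the average (adjusted p = 0.210) and at 1.05 ± 0.37 in WW against WL (0.215). ACTA2, smooth muscle actin, stood at 0.50 ± 0.26 (0.293) and 0.77 ± 0.37 (0.356). The stellate sum ran from 1261 to 2219 in WW, against 1451 to 1612 in WL, and from 1054 to 2007 in LW, against 1177 to 1620 in LL. The part of these cell types in the EHHADH and ACSL1 results was not tested.

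The next genes in the average over dam diets missed the threshold. CRAT, the carnitine acetyltransferase that buffers short-chain acyl-CoA, averaged 9.51 ± 0.19 in LW and 10.08 ± 0.45 in LL, and 9.42 ± 0.47 in WW and 9.77 ± 0.31 in WL (SD). Its averaged difference was -0.46 ± 0.15 (adjusted p = 0.0927), and its 3 probes gave -0.33 to -0.46. LW and LL overlapped slightly, between 9.70 and 9.73, and LL 1 at 10.95 was the highest mouse. With slide as a block the CRAT difference was -0.73 ± 0.13 and passed (adjusted p = 0.00622), and within slides it was -1.25 and -0.53 in LW against LL and -0.21 and -1.15 in WW against WL. On the deposited normalized values it passed too (-0.36, adjusted p = 0.0439). The slide 1 difference in LW against LL had LL 1 as its only LL mouse. Without LL 1 the averaged CRAT difference was -0.37, and CRAT passed in 0 of 22 fits that each left out 1 mouse. In WW against WL its 3 probes gave -0.34, 0.10 and -0.20.

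HADHB, the thiolase subunit of the mitochondrial trifunctional protein, averaged 7.79 ± 0.36 in LW and 8.29 ± 0.32 in LL, and 7.71 ± 0.53 in WW and 8.24 ± 0.44 in WL. The averaged difference was -0.51 ± 0.16 (adjusted p = 0.0833), and the groups overlapped in both comparisons. Within slides it was -0.89 and 0.06 in LW against LL and -0.16 and -0.91 in WW against WL. Its partner subunit HADHA was not analysed here, so the trifunctional protein is seen through 1 subunit.

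HSD17B4, the peroxisomal bifunctional enzyme that also takes branched-chain and bile acid intermediates, was the one gene of the 8 lowest p-values that ran the other way. Its log2 intensities were 13.81, 13.90, 13.74, 13.59 and 13.69 in the LW mice, against 13.28 (lowest), 13.46 (median) and 13.62 (highest) in LL. In WW they were 13.23, 13.69 and 13.83 (lowest, median, highest), against 13.47, 13.49, 13.41, 13.26 and 13.37 in the WL mice. Both pairs overlapped, LW and LL through LW 4 alone. The averaged difference was 0.25 ± 0.08 (adjusted p = 0.0785). It passed on the deposited normalized values (0.16, adjusted p = 0.0277), with an offset of 50 in the background step (0.25, 0.0480), and without WW 6 (0.29, 0.0300). With slide as a block it was 0.15 (adjusted p = 0.232), and within slides it was 0.24 and 0.13 in LW against LL and 0.24 and -0.03 in WW against WL. EHHADH and HSD17B4 catalyse the same pair of steps in peroxisomes, and their log2 differences had opposite signs, of which the EHHADH difference alone passed.

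**Figure D2:**
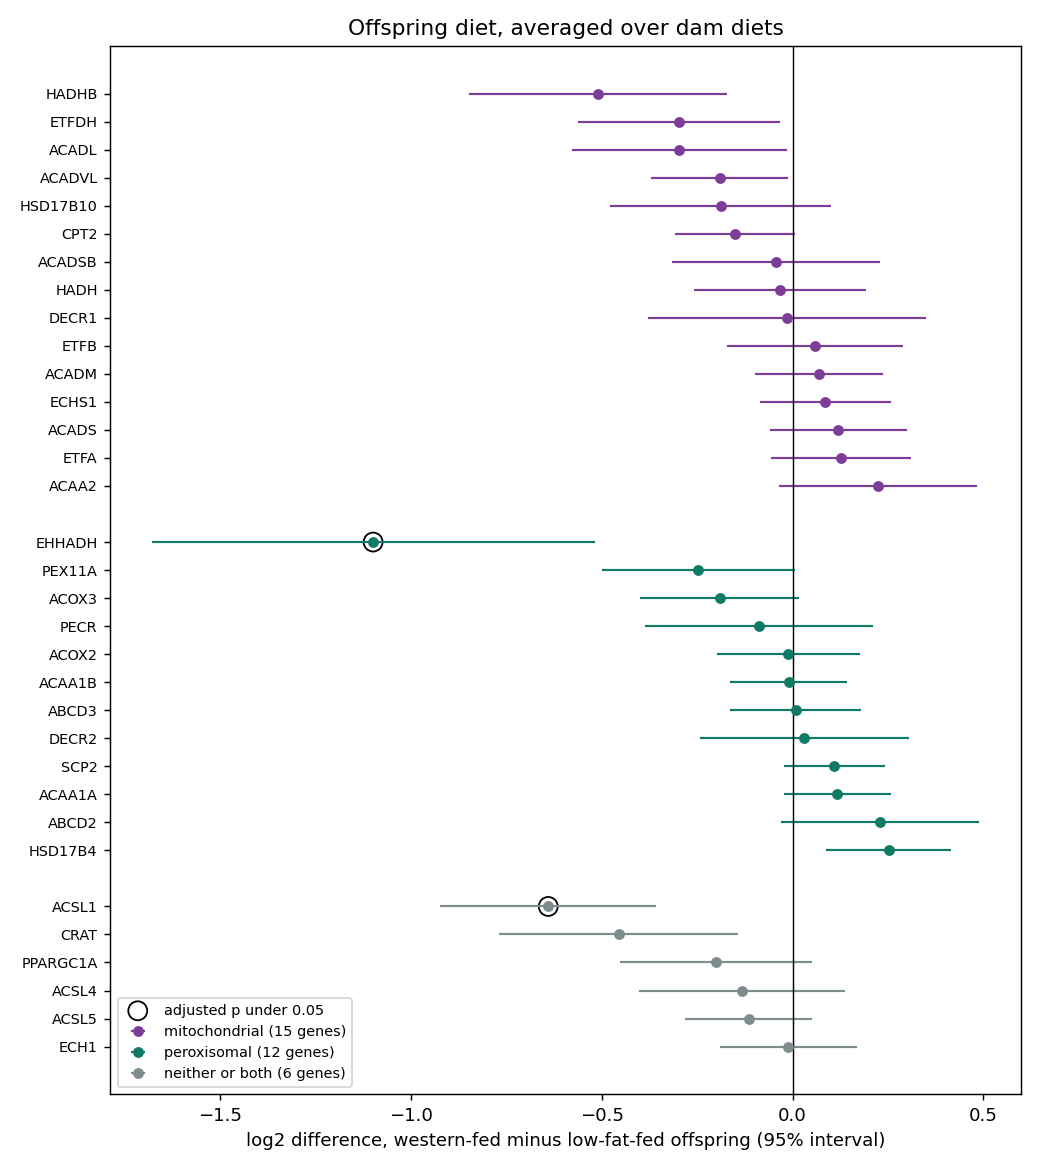
Log2 difference of western-fed minus low-fat-fed offspring, averaged over dam diets (horizontal axis), for the 33 tested genes by compartment. Points are limma estimates, bars are 95% intervals, and a ring marks an adjusted p under 0.05. EHHADH at -1.10 and ACSL1 at -0.64 carry the rings, and 29 of the 33 points lie within 0.3 of 0.

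The mitochondrial genes followed no common direction in the average over dam diets. Of 15, 6 were higher and 9 lower, with a median log2 difference of -0.03 and 0 past the threshold. That median was the value of HADH, whose probe was detected on 5 arrays only. At an unadjusted p under 0.05 (limma), 0 of the 15 were higher and 4 lower, where 20% of all genes reached that level in either direction. Besides HADHB these were ETFDH, the dehydrogenase that passes electrons from the acyl-CoA dehydrogenases to ubiquinone (-0.30 ± 0.13, adjusted p = 0.194), ACADVL, the very-long-chain acyl-CoA dehydrogenase (-0.19 ± 0.09, 0.215), and ACADL, the long-chain one (-0.30 ± 0.14, 0.224). A second ACADL probe, detected on all 22 arrays, stood at 0.04, so the lower ACADL value depends on the probe.

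ETFDH averaged 10.61 ± 0.10 in LW and 10.93 ± 0.42 in LL, and 10.78 ± 0.34 in WW and 11.05 ± 0.28 in WL. ACADVL averaged 11.44 ± 0.24 in LW and 11.51 ± 0.18 in LL, and 11.32 ± 0.19 in WW and 11.63 ± 0.10 in WL. Their group ranges overlapped in both diet comparisons, and without LL 1 ETFDH passed (-0.37, adjusted p = 0.0482). ETFDH stood at -0.14 with slide as a block (adjusted p = 0.400), and within slides it was 0.33 and -0.19 in LW against LL and -0.25 and -0.37 in WW against WL. CPT2, the carnitine palmitoyltransferase of the inner membrane, averaged 11.52 ± 0.12 in LW and 11.69 ± 0.16 in LL, and 11.55 ± 0.08 in WW and 11.68 ± 0.20 in WL. Its averaged difference was -0.15 ± 0.08 (adjusted p = 0.273), and its 3 probes gave -0.15, -0.31 and -0.39.

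ACADM, the medium-chain acyl-CoA dehydrogenase, averaged 13.78 ± 0.22 in LW and 13.61 ± 0.19 in LL, and 13.56 ± 0.12 in WW and 13.59 ± 0.13 in WL. Its averaged difference was 0.07 ± 0.08, with a 95% interval of -0.10 to 0.24, and it was 0.03 without LW 2 and 0.03 with slide as a block. The other 9 mitochondrial genes ran from -0.19 (HSD17B10) to 0.22 (ACAA2, the mitochondrial thiolase). Between them lay the small shifts of ACADS, ACADSB, ETFA, ETFB, HADH, ECHS1 and DECR1. The HADH probe was detected on 5 of 22 arrays, at a mean log2 intensity of 4.63, so little can be said of its shift. CPT1A, the rate-limiting transferase of the outer membrane, was detected on 4 of 22 arrays by 1 probe and on 0 by the other, so nothing can be said of its level.

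The peroxisomal genes split evenly, with 6 of 12 higher and 6 lower in the average over dam diets and a median of -0.001. Besides EHHADH and HSD17B4, the widest differences were those of PEX11A, which drives peroxisome division (-0.25 ± 0.12, adjusted p = 0.260, and -0.14 with slide as a block), and ABCD2, a transporter of very-long-chain acyl-CoA (0.23 ± 0.13, 0.313). The thiolases ACAA1A and ACAA1B stood at 0.12 ± 0.07 and -0.01 ± 0.07. They are near-identical copies, and how far their probes share signal was not tested. ACAA1A averaged 13.55 ± 0.13 in LW and 13.36 ± 0.10 in LL, and 13.44 ± 0.14 in WW and 13.40 ± 0.09 in WL. ACAA1B averaged 15.05 ± 0.09 in LW and 15.11 ± 0.18 in LL, and 15.08 ± 0.13 in WW and 15.04 ± 0.15 in WL. For ACAA1B the 95% interval of the averaged difference was -0.16 to 0.14.

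ABCD3, ACOX2, ACOX3, SCP2, DECR2 and PECR lay between -0.19 (ACOX3) and 0.11 (SCP2). CROT, the peroxisomal carnitine octanoyltransferase, was detected on 1 of 22 arrays, and PHYH, which starts the breakdown of phytanic acid, on 0. Of the genes in neither or both compartments, all 6 were lower in the average over dam diets, with a median of -0.17, against 0.005 over all genes. They were ACSL1, CRAT, PPARGC1A, ACSL4 (-0.13), ACSL5 (-0.11) and ECH1 (-0.01), of which ACSL1 alone passed. ACSL4 and ACSL5 each had a probe above 0 (0.18 and 0.05), detected on 9 and 6 arrays. With slide as a block ACSL4 stood at -0.03. PPARGC1A, a coactivator of mitochondrial gene programs, averaged 5.54 ± 0.19 in LW and 5.82 ± 0.25 in LL, and 5.42 ± 0.35 in WW and 5.54 ± 0.36 in WL, with an averaged difference of -0.20 ± 0.12 (adjusted p = 0.373). FABP1, the liver fatty acid binding protein, and VNN1, a pantetheinase, were detected on 0 of 22 arrays by their single probes. FABP1 is known as abundant in liver, and whether its probe reads the transcript was not tested, so nothing can be said of the level of either gene.

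The compartments were set against each other as mean log2 differences from the LL mean. The 15 mitochondrial genes averaged -0.10 ± 0.14 in WW, 0.01 ± 0.06 in WL, -0.03 ± 0.06 in LW and 0 ± 0.07 in LL (SD over mice). The 12 peroxisomal genes averaged -0.14 ± 0.08 in WW, -0.13 ± 0.13 in WL, -0.14 ± 0.12 in LW and 0 ± 0.06 in LL. The ranges of WW (-0.21 to 0.005), WL (-0.26 to 0.08) and LW (-0.32 to -0.006) each overlapped that of LL (-0.09 to 0.08). Without EHHADH, left out after seeing the data, the other 11 averaged -0.04 ± 0.10 in WW, -0.13 ± 0.07 in WL, -0.05 ± 0.10 in LW and 0 ± 0.04 in LL, so that EHHADH carried most of the mean in WW and LW. The WL mice (-0.25 to -0.08) then lay below the LL mice (-0.06 to 0.05). With EHHADH in, WL 5 at 0.08 was the one WL mouse within the LL range, and its EHHADH value was the high one. The separation thus follows from the gene left out and was not tested. Peroxisomal minus mitochondrial, per mouse, averaged -0.03 ± 0.12 in WW, -0.14 ± 0.09 in WL, -0.12 ± 0.06 in LW and 0 ± 0.10 in LL, again with overlapping ranges. It was below 0 in every WL mouse (-0.26 to -0.05) and every LW mouse (-0.19 to -0.04). In WW it ran from -0.26 to 0.06 and in LL from -0.15 to 0.15. The 6 genes of neither or both compartments averaged -0.34 ± 0.14 in WW and -0.11 ± 0.11 in WL, and -0.29 ± 0.07 in LW and 0 ± 0.09 in LL. For these 6, every LW mouse (-0.41 to -0.22) lay below every LL mouse (-0.11 to 0.10), while WW (-0.58 to -0.16) and WL (-0.25 to 0.002) overlapped. Without ACSL1 the LW mice (-0.30 to -0.19) still lay below the LL mice (-0.10 to 0.12).

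**Figure D3:**
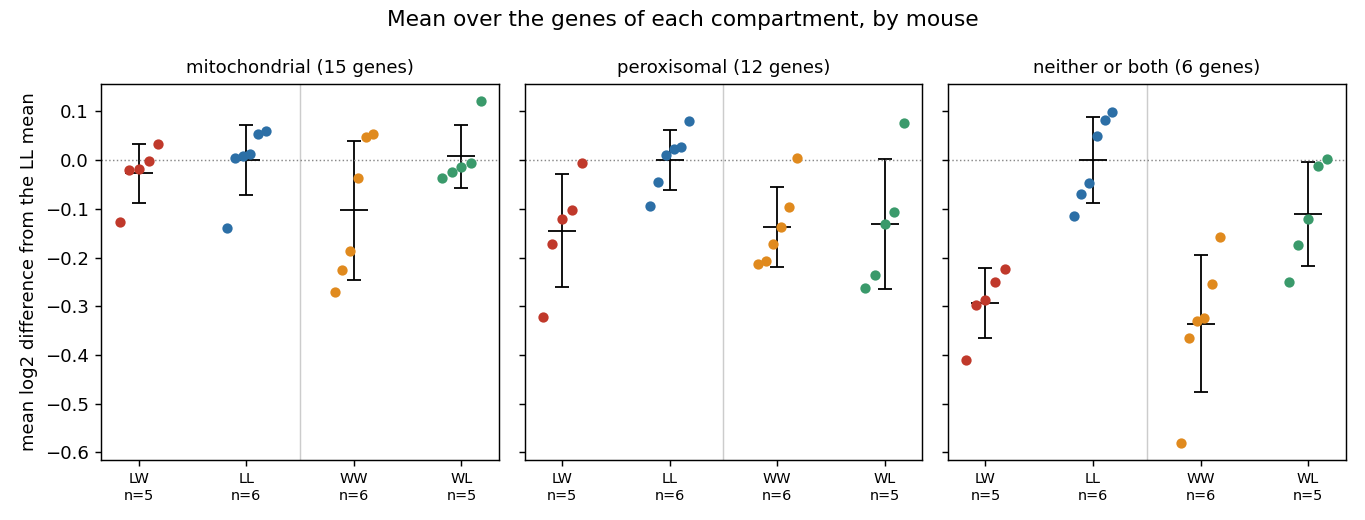
Mean log2 difference from the LL mean over the genes of each compartment (vertical axis), per mouse, by group in the order LW, LL, WW and WL. Points are mice, the tick is the group mean and the bar 1 SD. The mitochondrial and peroxisomal points of the groups overlap, and the 6 genes of neither or both compartments separate LW from LL.

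Within offspring of low-fat dams, the western diet after weaning (LW against LL) left 0 of 33 genes past the threshold, beside 0.243% of all genes. At an unadjusted p under 0.05 (limma), 1 was higher and 6 lower (21.2%), beside 15.4% of all genes. In 3 genes, all lower in LW, the groups did not overlap (ACADL, EHHADH and ACSL1), beside 2.34% of all genes in either direction. ACADL had log2 intensities of 7.51, 7.44, 7.53, 7.63 and 7.36 in the LW mice, against 7.72 (lowest), 8.24 (median) and 8.64 (highest) in LL, a difference of -0.68 ± 0.19 (adjusted p = 0.112). It averaged 8.06 ± 0.28 in WW and 7.97 ± 0.50 in WL. A second ACADL probe went the other way, with a difference of 0.40, so the direction of ACADL depends on the probe.

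PEX11A was 11.66, 12.18, 11.91, 12.11 and 12.17 in the LW mice, against 12.01 (lowest), 12.63 (median) and 12.92 (highest) in LL. LL 1 was the one LL mouse within the range of LW. The difference was -0.57 ± 0.17 (adjusted p = 0.127), all 4 of its probes were lower (-0.23 to -0.66), and it was -0.68 and passed without LL 1 (adjusted p = 0.0474). LL 1 was the sole LL array on slide 1, where the difference was -0.09, against -0.56 on slide 3. With slide as a block the PEX11A difference was -0.47 (adjusted p = 0.368, limma). In WW it averaged 12.28 ± 0.26, against 12.20 ± 0.38 in WL.

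Within offspring of western-diet dams, the diet after weaning (WW against WL) again left 0 of 33 genes past the threshold, beside 0.476% of all genes. At an unadjusted p under 0.05 (limma), 1 was higher and 4 lower (15.2%), beside 13.8% of all genes. In no gene of the 33 did the groups separate, beside 1.82% of all genes. Besides ACSL1 and EHHADH, the smallest p belonged to ABCD2, which averaged 5.99 ± 0.23 in WW and 5.53 ± 0.41 in WL, a difference of 0.46 ± 0.18 (adjusted p = 0.245), and 6.01 ± 0.33 in LW and 6.01 ± 0.25 in LL. ACSL1 passed in this comparison when WL 4 was left out (-0.85, adjusted p = 0.0452). The mitochondrial median was -0.04 and the peroxisomal median 0.06, against -0.01 and -0.04 in LW against LL. The mitochondrial median in WW against WL was again the value of HADH, detected on 5 arrays only.

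The diet of the dam was compared in low-fat-fed offspring (WL against LL) and in western-fed offspring (WW against LW). None of the 33 genes passed in either, as none of all 9881 did (0% in each). At an unadjusted p under 0.05 (limma), WL against LL had 0 higher and 3 lower (9.09%), beside 4.74% of all genes. WW against LW had 1 higher and 1 lower (6.06%), beside 10% of all genes. Averaged over offspring diets the counts were 0 higher and 1 lower (3.03%), beside 5.89% of all genes, and 0 passed, beside 0% of all genes.

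DECR2, the peroxisomal dienoyl-CoA reductase needed for unsaturated fatty acids, was that one gene. It was 9.19, 9.25, 9.06, 9.49 and 9.79 in the WL mice, against 9.70 (lowest), 9.86 (median) and 10.32 (highest) in LL. WL 5 alone reached the range of LL. In WW it was 9.07, 9.41 and 9.98 (lowest, median, highest), against 10.44, 9.97, 9.22, 9.77 and 9.85 in the LW mice, so WW and LW overlapped widely. The dam diet difference averaged over offspring diets was -0.46 ± 0.13 (unadjusted p = 0.00176, adjusted p = 0.816, limma). Its second probe gave -0.41, and within slides the difference was -0.54 and -0.04 in WL against LL and -0.50 and -0.21 in WW against LW.

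ABCD2 stood at 5.53 ± 0.41 in WL and 6.01 ± 0.25 in LL (-0.48 ± 0.18 on the log2 scale), and PEX11A stood at 12.20 ± 0.38 in WL and 12.58 ± 0.31 in LL (-0.37 ± 0.17). Neither passed the threshold (adjusted p = 0.968 and 0.996). In western-fed offspring, ACADL averaged 8.06 ± 0.28 in WW and 7.49 ± 0.10 in LW (0.57 ± 0.19, adjusted p = 0.421), where its second probe gave -0.89. DECR1, the mitochondrial dienoyl-CoA reductase, averaged 8.64 ± 0.67 in WW and 9.21 ± 0.34 in LW (-0.56 ± 0.25, adjusted p = 0.459). Without WW 6 the DECR1 difference was -0.36. Its other 2 group means were 8.96 ± 0.32 in WL and 8.92 ± 0.35 in LL.

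The interaction asks whether the offspring diet acted differently by dam diet, as WW minus WL minus the difference of LW and LL. None of the 33 genes passed, as none of all genes did (0%), and 3 were higher and 0 lower at an unadjusted p under 0.05 (limma, 9.09%), beside 8% of all genes. They were ACADL (0.77 ± 0.27, adjusted p = 0.537), PEX11A (0.65 ± 0.24, 0.569) and ACOX2, the oxidase of bile acid intermediates (0.38 ± 0.18, 0.610). The second ACADL probe gave -0.71, and with slide as a block the ACOX2 interaction was 0.21 (unadjusted p = 0.167, limma). ACOX2 averaged 11.31 ± 0.05 in LW and 11.51 ± 0.20 in LL, and 11.49 ± 0.29 in WW and 11.31 ± 0.14 in WL, with overlap in both pairs. The mitochondrial median of the interaction was -0.11, with 4 genes higher and 11 lower. The peroxisomal median was 0.09, with 9 higher and 3 lower, and the median over all genes was -0.008.

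Probes of one gene often differed by as much as the diets did. In the average over dam diets, 16 genes had at least 2 kept probes, and in 7 of them all probes had 1 sign while in 9 they did not. The span between the lowest and the highest probe had a median of 0.30 and a maximum of 0.51 (ACSL5), on the log2 scale. Some opposing probes were dim. The positive probes of ACSL5 (0.05) and ACOX3 (0.17) were each detected on 6 of 22 arrays. The ACSL4 probes at 0.18 and -0.23 were detected on 9 and 5. Every kept probe of ACAA2 and ABCD3 was detected on all 22. ACAA2 ran from -0.27 to 0.22 over 4 probes and ETFA from -0.29 to 0.13 over 3. ACADVL, ACADS, DECR2 and ETFB had probes within 0.06 of each other. EHHADH and ACSL1 each had 1 probe, so their calls have no such comparison.

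**Figure D4:**
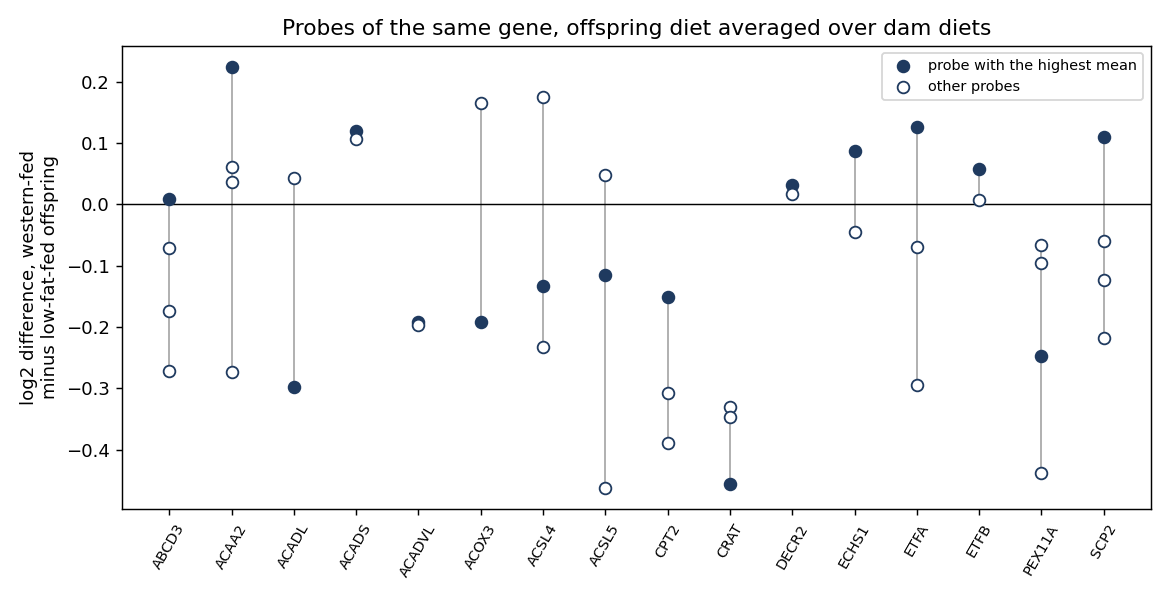
Log2 difference of western-fed minus low-fat-fed offspring, averaged over dam diets (vertical axis), for every kept probe of the 16 genes with at least 2. Filled points are the probes with the highest mean, which were used for the gene, and open points the others. In 9 of the 16 genes the points lie on both sides of 0.

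Genes of neighbouring pathways were read beside the members, in the average over dam diets. Of 14 tested genes of PPAR-alpha and its known targets, 13 were lower, with a median of -0.22. Of these 14, 0 were called higher and 2 lower, beside 2.71% of all genes. At an unadjusted p under 0.05 (limma), 1 was higher and 6 lower, beside 20% of all genes. The 2 called were ACOT1, a cytosolic acyl-CoA thioesterase (-1.50 ± 0.21, adjusted p = 0.000259), and CYP4A14, a fatty acid omega-hydroxylase (-1.01 ± 0.17, 0.00161). PPARA itself stood at -0.20 ± 0.12 (adjusted p = 0.367). Of 20 further genes of fatty acid oxidation, 8 were higher and 12 lower, with a median of -0.10 and 2 called lower, again beside 2.71%. At an unadjusted p under 0.05 (limma), 2 were higher and 6 lower. Of the 2 called, HACL1, the peroxisomal lyase of alpha-oxidation, was one (-0.70 ± 0.13, adjusted p = 0.00552), and ACOT8, a peroxisomal acyl-CoA thioesterase, the other (-0.45 ± 0.09, 0.00831).

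None of 15 other peroxisomal enzymes passed, with a median of -0.02, and 3 were higher and 4 lower at an unadjusted p under 0.05 (limma), a level that 20% of all genes reached. None of 14 peroxins passed, with a median of 0.04, and 3 were higher and 2 lower at that level. None of 13 genes of the tricarboxylic acid cycle passed, with a median of -0.06, and 1 was higher and 2 lower at that level. The median over all 9881 genes was 0.005.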

How the data were processed

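Liver RNA of 22 mice was hybridised to Illumina bead arrays, 1 per mouse. Per the labels, RNA was extracted with TriReagent and biotin-labelled with a TotalPrep kit. The deposited table gives each probe an intensity and a detection p-value per array, per the file headers, with no normalization recorded there. Between 33.2% (WW 4) and 41.2% (LL 1) of its intensities per array were below 0, so some background had already been subtracted. The deposited series matrix holds intensity values with array medians of 245, normalized in a way not given in the sources used here, and served as an alternative.

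Intensities were background-corrected, quantile-normalized and put on a log2 scale with neqc of limma 3.58.1 (R 4.3.3, offset 16). Probes detected at p under 0.05 on at least 5 arrays were kept (16268), and the probe with the highest mean stood for its gene. Target names were matched to RefSeq symbols (GRCm38.p6), and 2 target names that are older names of members were left out by the rule. Group means were fitted over all arrays with lmFit and eBayes, adjusted over 9881 genes by Benjamini-Hochberg. The functions were tested on simulated data. Members, lists and tests were chosen with earlier results of these data known. Values in every group are given for members past the threshold, the 8 smallest p-values in the averaged offspring diet, the 3 smallest in each other comparison, and 13 members fixed by name, several of which those rules also name. From other lists, genes past the threshold are named, and PPARA was named after its values were seen. 1 gene is not reported here. Alternatives covered normalization, offset, detection filter, probe choice, slide, replicate number, variance trend and each mouse left out. Promoter sequences are RefSeq's, which had entries for 34 of the 40 members.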

Additional observations from a re-analysis of the deposited data

Results flagged for a closer look

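Dixon's test on the 4 groups of each of 18 named members (72 groups) picked out 4 mice that stood apart from their group. By chance it picks about 1 in 20 groups, a share near the one seen here. ACSL1 was 12.33 on the log2 scale in LL 6, where the next LL mouse was at 11.91. CRAT was 10.95 in LL 1, where the next LL mouse was at 10.12. CPT2 was 12.03 in WL 5, where the next WL mouse was at 11.65. ACAA1B was 15.33 in WW 5, where the next WW mouse was at 15.07.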

How the results depend on the processing

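ACSL1 was called in the averaged offspring diet under all alternatives run, while EHHADH was not called on the deposited values (-0.28, adjusted p = 0.0880) or with no detection filter (0.0866, where 19919 genes were tested). The count of called members there was 1 with no detection filter, 5 with the replicate block (ACSL1, CRAT, EHHADH, HADHB and HSD17B4), and 1 to 3 as each mouse was left out. Same-numbered mice were not paired by the labels. The correlation of their deviations had a median of 0.11 over 31 pairs (-0.18 to 0.45), with 16 above 0.1. Over 150 pairs with different numbers the median was -0.03, with 36 above 0.1. Replicate number and slide overlap in part, and pairs on the same slide had a median of 0.15. What the replicate block takes up was not tested. Leaving out mice gave 0 to 1 called member in LW against LL (PEX11A without LL 1, EHHADH without WL 5) and 0 to 1 in WW against WL. Leaving out LL 1 and WL 5 together, chosen after seeing the data, gave 3 in LW against LL (ACADL, EHHADH and PEX11A).

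The mitochondrial median in LW against LL was 0.11 over genes detected on all 22 arrays, and ran from -0.023 to 0.12 as mice were left out. In WW against WL it was -0.17 with slide as a block and -0.31 with the dimmest kept probe of each gene, a choice made after seeing the data. With that probe it was 0.10 in WL against LL (-0.01 in the main results) and -0.28 in the interaction (-0.11). With that probe the peroxisomal median was -0.16 in WL against LL, beside -0.05 in the main results. ACADL then turned to 0.40 (LW against LL), -0.89 (WW against LW), -0.71 (interaction) and 0.044 (averaged offspring diet). The mean of the ACADL probes gave -0.16 in WW against LW. The peroxisomal median of the interaction was 0.09 in the main results and -0.021 with slide as a block. The averaged difference of ACAA1B was 0.011 on the deposited values, 0.028 and 0.0099 with slide as a fixed and a random block, and -0.037 to 0.017 as mice were left out. The causes were not tested.

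Over all genes, LW against LL had 24 called, against 0 on the deposited values, 7 with no filter, 12 with detection on all arrays, 15 with the mean of probes, 5 with slide as a block, 67 with the replicate block and 205 without LL 1 and WL 5. WW against WL had 47, against 125 on the deposited values, 2 with no filter, 316 with slide as a fixed block, 122 with it as a random one, 122 with the replicate block, 28 with the dimmest probe and 5 without LL 1 and WL 5. The averaged offspring diet had 268, against 788 with the replicate block. WL against LL had 0, against 2 with the replicate block, and WW against LW had 0, against 1 with it and 4 with slide as a fixed block. A fit over all 16268 kept probes, added after seeing the data, called 2 member probes in the averaged offspring diet and 0 elsewhere. As each mouse was left out, the counts over all genes ran from 4 (LW 5) to 87 (LL 1) in LW against LL, from 3 (WL 5) to 81 (WL 2) in WW against WL and from 136 (WL 5) to 524 (LL 1) in the averaged offspring diet. The offset narrows differences of dim genes, and the 6 dimmest tested members were HADH, PECR, ACADSB, PPARGC1A, ACSL4 and ABCD2.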
